A study of Mus musculus with 16 samples.

Results

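The phagocyte NADPH oxidase is an enzyme complex of microglia, macrophages and neutrophils that passes electrons from NADPH across a membrane to oxygen and so makes superoxide. A pair of membrane proteins carries the electrons, and cytosolic subunits join them together with a small GTPase when the cell is stimulated. In spinal cord and brain the complex is known mainly from microglia, the resident macrophages, and superoxide made by it is studied as a source of oxidative damage in motor neuron disease.

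The transcripts described are those of 5 subunit genes, *Cybb*, *Cyba*, *Ncf1*, *Ncf4* and *Rac2*. They were selected by symbol, with earlier results of these data known, and all 5 were among the 18167 genes measured. Spinal cord RNA of 16 transgenic mice, all described as male, was sequenced in 4 groups. Mutant mice (transgene Tg(Prnp-PFN1*G118V)838Kiaei on C57BL/6N) carry human profilin1 with the G118V change, a cause of inherited amyotrophic lateral sclerosis (ALS), and wild-type mice (C57BL/6N-Tg(Prnp-PFN1)850Kiaei/J) carry the unchanged human profilin1, so both genotypes hold a human transgene, each from a single line. In both, the mouse prion protein promoter of the MoPrP.Xho vector drives the transgene, and this promoter is active in many cell types. The mutant young (MY) and wild-type young (WY) groups had 3 mice each, 50 days old, an age at which mutant mice have no symptoms. The mutant old (MO) group had 5 mice at end stage, 175 to 245 days old, and the wild-type old (WO) group 5 mice, 190 to 294 days old. Libraries were made in 2 batches, and batch 2 held MO4, MO5, WO4 and WO5 alone, of which WO4 and WO5 were both 294 days old. Within WO, batch and age cannot be told apart.

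Values are log2(1 + FPKM), where FPKM is the number of fragments scaled to transcript length and library size, after the authors corrected them for library batch. The correction leaves some values below 0, which FPKM itself cannot give. Batch 1 held 3 mice of each group, and batch 2 held 2 MO and 2 WO mice. Whether the correction allowed for this difference is not given in the sources used here. Levels are therefore less comparable between the batches than within them. The depth behind the value of a single gene is unknown, so the spread of the mice is the only measure of error. A gene was called differentially expressed in the limma fit over all genes if its false discovery rate (FDR) did not exceed 0.05 and its fold change reached 1.5, and fold changes on this scale understate the change of genes of low level.

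Some libraries stood apart from the rest. In MO5 the log2 level of *Xist*, the transcript of the inactive X chromosome, was 3.21, against 0.37 or less in the other 15 mice, and *Ddx3y*, a gene of the Y chromosome, was at 1.95, against 4.06 or more. The markers of MO5 therefore went against the described sex, and values are given with and without this library. In WO4 the log2 level of *Mbp*, a myelin gene, was 5.36, whereas it was at least 12.16 in every other mouse, while *Mog*, another myelin gene, was at 7.49 in WO4 and 7.08 to 7.51 in the other WO mice. In WY1 the spinal cord neuron genes *Slc6a5*, *Slc5a7* and *Chat* were at 4.02, 3.99 and 3.08. They were at 5.93, 4.78 and 3.72 in WY2 and at 5.79, 4.73 and 3.72 in WY3. Markers of the labelled tissue were otherwise present, among them *Snap25* of neurons with a mean log2 level of 10.63 in WO and 10.22 in MO. The spinal cord gene *Hoxc8* was at 4.97 and 4.54.

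All 5 subunit transcripts were higher in MO than in WO, MY and WY, and in none of them did an MO mouse overlap with any mouse of the other groups. Of all genes, 7.58% had every MO mouse above every other mouse. In the WO vs. MO comparison 5 of the 5 subunits were up-regulated, against 4.08% of all genes, and in MY vs. MO 5 of 5 against 4.11%. The subunits were chosen with earlier results of these data known, so such shares are a description and not a test. The median log2 fold change of the 5 was 1.37 in WO vs. MO and 1.44 in MY vs. MO, where the median of all genes was 0.0004 and 0.005. WO vs. MO and MY vs. MO share the 5 MO mice and are not independent. In bulk tissue, more cells of a type and more RNA per cell cannot be told apart.

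**Figure D1:**
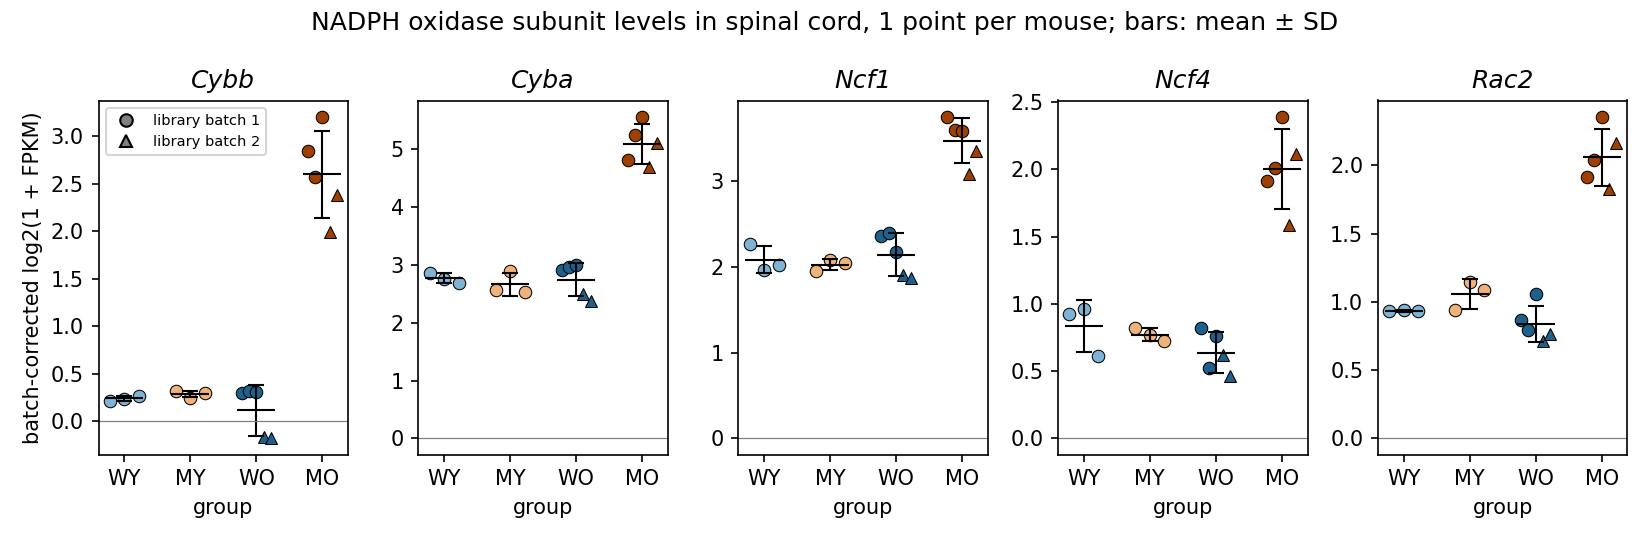
Batch-corrected log2(1 + FPKM) (vertical axes, a separate scale for each gene) of the 5 subunit genes in the WY, MY, WO and MO groups (horizontal axes). Each point is a mouse, circles are library batch 1 and triangles batch 2, and bars are the mean ± SD. The MO mice lie above all other mice in every panel, and *Cybb* is below 0 in the 2 WO mice of batch 2.

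On the scale of log2(1 + FPKM) the membrane subunits changed most of the 5. *Cybb* encodes NOX2 (gp91phox), the catalytic subunit that carries the electrons to oxygen, and lies on chromosome X from 9435252 to 9487771 on the minus strand (GRCm38, GENCODE M21, as all positions). Its log2 level was 0.21, 0.24 and 0.27 in the WY mice and 0.32, 0.25 and 0.30 in the MY mice. In WO it was 0.30, 0.32, 0.31, -0.17 and -0.18, and in MO 2.85, 2.58, 3.21, 1.99 and 2.38, for mice 1 to 5 of each group. The 3 WO mice of batch 1 were at the level of the young mice, the 2 of batch 2 were lower, and MO4 and MO5, also of batch 2, were the lowest of the MO group. The WO mean was 0.12 ± 0.27 (SD, n = 5) and the MO mean 2.60 ± 0.46 (SD, n = 5), a log2 fold change of 2.49 (SE 0.21, FDR = 2.48e-05), or 5.61-fold on the scale of 1 + FPKM. Without MO5 it was 2.54 (FDR = 0.000107). Within batch 1 the difference was 2.57 and within batch 2 it was 2.36. Against MY the log2 fold change was 2.31 (SE 0.23, FDR = 0.000446), or 2.37 without MO5, and it was 2.59 within batch 1, the batch of all MY mice.

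The size of the *Cybb* change depended on the scale, because its level outside MO was close to 0. With 0.1 in place of 1 added to FPKM, the log2 fold change was 4.00 in MY vs. MO. The 4.62 in WO vs. MO rests on WO4 and WO5 being set from below 0 to 0 FPKM before 0.1 was added, and over the other 3 WO mice the difference was 3.92 (not tested). Back-calculated FPKM of *Cybb* was 2.99 to 8.25 in MO and 0.16 to 0.21 in WY, while in WO it ran from -0.12 to 0.24, so that no ratio can be taken for WO4 and WO5.

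*Cyba* encodes p22phox, the smaller membrane subunit, which stabilizes NOX2 and docks the organizer (chromosome 8, 122424776 to 122432930, minus strand). Its log2 level was 2.86, 2.76 and 2.68 in WY and 2.56, 2.89 and 2.52 in MY. In WO it was 2.91, 2.96, 2.99, 2.49 and 2.37, and in MO 4.81, 5.23, 5.55, 4.69 and 5.09. The MO mice lay clear of the others, MO3 was the highest and MO4 the lowest, and in WO the batch 2 mice were again the lower ones. From a mean of 2.74 ± 0.29 in WO (SD, n = 5) the level was 5.08 ± 0.34 in MO (SD, n = 5), a log2 fold change of 2.33 (SE 0.18, FDR = 2.16e-05), or 5.04-fold. The value without MO5 was 2.33 (FDR = 0.000104), and the differences within batch 1 and batch 2 were 2.25 and 2.46. Against MY it was 2.42 (SE 0.19, FDR = 0.000246), or 2.41 without MO5 and 2.54 within batch 1.

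The cytosolic subunits were up-regulated by less on the same scale. *Ncf1* encodes p47phox, the organizer whose phosphorylation starts assembly (chromosome 5, 134220053 to 134229625, minus strand). Its log2 level was 2.26, 1.96 and 2.02 in WY and 1.95, 2.07 and 2.04 in MY. In WO it was 2.36, 2.39, 2.17, 1.90 and 1.87, and in MO 3.74, 3.59, 3.57, 3.07 and 3.34. The highest mouse outside MO, WO2, was 0.68 below MO4, the lowest MO mouse. Means were 2.14 ± 0.25 in WO and 3.46 ± 0.26 in MO (SD, n = 5 each), and the log2 fold change was 1.33 (SE 0.14, FDR = 9.66e-05), or 1.36 without MO5 (FDR = 0.000337). It was 1.33 within batch 1 and 1.33 within batch 2. In MY vs. MO the log2 fold change was 1.44 (SE 0.14, FDR = 0.000357), or 1.47 without MO5 and 1.61 within batch 1.

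*Ncf4* encodes p40phox, a regulatory subunit that binds phosphatidylinositol 3-phosphate on phagosomes (chromosome 15, 78244801 to 78262580, plus strand). Its log2 level was 0.93, 0.96 and 0.62 in WY and 0.82, 0.77 and 0.72 in MY. In WO it was 0.82, 0.53, 0.76, 0.62 and 0.46, and in MO 1.91, 2.01, 2.39, 1.58 and 2.12. Here WY and WO overlapped, and MO3 and MO4 were again the highest and the lowest MO mouse. Means were 0.64 ± 0.15 in WO and 2.00 ± 0.30 in MO (SD, n = 5 each), with a log2 fold change of 1.37 (SE 0.13, FDR = 5.11e-05), or 1.34 without MO5 (FDR = 0.000246). Within batch 1 it was 1.40 and within batch 2 it was 1.31. In MY vs. MO it was 1.23 (SE 0.15, FDR = 0.000976), or 1.20 without MO5 and 1.33 within batch 1. With 0.1 added to FPKM the log2 fold changes were 2.26 and 1.94, against 2.51 and 2.60 for *Cyba*, so the gap between them depends on the scale.

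*Rac2* encodes the small GTPase of blood-lineage cells that activates NOX2 when loaded with GTP (chromosome 15, 78559167 to 78572783, minus strand), on the same chromosome as *Ncf4*. Its log2 level was 0.93, 0.94 and 0.93 in WY and 0.94, 1.15 and 1.09 in MY. In WO it was 0.87, 0.79, 1.06, 0.72 and 0.76, and in MO 1.92, 2.04, 2.36, 1.83 and 2.16. The lowest MO mouse was 0.68 above the highest mouse of any other group, MY2. Means were 0.84 ± 0.13 in WO and 2.06 ± 0.21 in MO (SD, n = 5 each), with a log2 fold change of 1.22 (SE 0.10, FDR = 2.34e-05), or 1.20 without MO5 (FDR = 0.000111), and 1.20 within batch 1 and 1.26 within batch 2. In MY vs. MO it was 1.00 (SE 0.12, FDR = 0.000722), or 0.98 without MO5 and 1.05 within batch 1. With 0.1 added to FPKM the log2 fold changes were 1.89 and 1.47. *Rac2* is similar in sequence to *Rac1* and *Rac3*, and how reads shared by them were assigned is not given in the sources used here.

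Among the MO mice, MO4, from batch 2, had the lowest level of all 5, while MO3, at 245 days the oldest MO mouse, had the highest of *Cybb*, *Cyba*, *Ncf4* and *Rac2*. For *Ncf1* the highest was MO1, and the places in between differed from subunit to subunit. MO5, the youngest MO mouse at 175 days and the library with the sex markers described above, was never the highest or the lowest. MO1, MO2 and MO3 were of batch 1 and MO4 and MO5 of batch 2, so places across the batches rest on the batch correction. The part of batch or age in this order was not tested.

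Neither age in wild-type mice nor genotype in young mice went with a called change of any subunit. In WY vs. WO 0 of 5 were called, where 0.253% of all genes were, and 0 of 5 had an unadjusted limma p below 0.05. The log2 fold changes were -0.13 for *Cybb* (FDR = 0.782), -0.02 for *Cyba* (FDR = 0.976), 0.06 for *Ncf1* (FDR = 0.923), -0.20 for *Ncf4* (FDR = 0.483) and -0.09 for *Rac2* (FDR = 0.667). Within batch 1 they were 0.07, 0.19, 0.23, -0.13 and -0.03 in the same order, so *Cybb* and *Cyba* turned direction, and batch 2 holds no young mice. In WY vs. MY, all from batch 1, 0 of 5 were called, where 0.0055% of all genes were, again with 0 of 5 below an unadjusted p of 0.05. The log2 fold changes lay between -0.11 for *Cyba* (FDR = 0.792) and 0.12 for *Rac2* (FDR = 0.711). With so few genes called in all, 0 of 5 is no trait of the subunits. MY vs. WO was not tested. Within batch 1 the WO mice lay above the MY mice for *Cyba* (2.91 to 2.99 against 2.52 to 2.89). The same held for *Ncf1* (2.17 to 2.39 against 1.95 to 2.07), while these mice overlapped for *Cybb*, *Ncf4* and *Rac2*. No order of the 3 groups outside MO is drawn from these values.

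The difference between old and young mice itself differed between the genotypes. In mutant mice it joins age with end-stage disease, and these cannot be told apart. Tested in 1 limma fit of the 4 group means, (MO - MY) - (WO - WY) was above 0 and past both thresholds for 5 of 5 subunits, against 4.65% of all genes. It was 2.44 for *Cybb* (SE 0.29, FDR = 8.46e-05) and 2.44 for *Cyba* (SE 0.26, FDR = 6.43e-05). For the cytosolic subunits it was 1.38 for *Ncf1* (FDR = 0.000464), 1.43 for *Ncf4* (FDR = 0.000255) and 1.10 for *Rac2* (FDR = 0.000177). Without MO5 the values in the same order were 2.50, 2.44, 1.42, 1.40 and 1.07.

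Levels were compared between the genes on back-calculated FPKM, which is scaled to transcript length. *Cyba* was the most abundant of the 5 in all 16 mice, with a median of 33.1 FPKM in MO and 6.53 in WO, and *Ncf1* the second, with medians of 10.9 and 3.51. The place of *Cybb* differed. It was the lowest of the 5 in all 3 WY, 3 MY and 5 WO mice, with a median of 0.23 FPKM in WO, and was the third in all 5 MO mice, with a median of 4.96. *Rac2* and *Ncf4*, with medians of 3.11 and 3.04 in MO, were close, and *Rac2* was the higher of them in 14 of 16 mice, 4 of 5 in MO, 5 of 5 in WO, 3 of 3 in MY and 2 of 3 in WY, the exceptions being MO3 and WY2.

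The subunits were also compared with genes of the same cell lineage in the same mouse. The reference was the mean log2 level of 5 myeloid genes, the receptor *Csf1r*, the integrin *Itgam*, the calcium-binding protein *Aif1*, the phosphatase *Ptprc* and the lysosomal protein *Laptm5*. It was 3.13, 3.16, 3.13, 2.81 and 2.74 in WO and 4.27, 4.63, 4.88, 4.29 and 4.33 in MO. The reference rose as well, and each of its 5 genes was up-regulated in both comparisons, from a log2 fold change of 0.99 for *Itgam* to 1.75 for *Aif1* in WO vs. MO.

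*Cybb* minus the reference was -2.83, -2.85, -2.82, -2.98 and -2.92 in WO and -1.42, -2.05, -1.67, -2.29 and -1.95 in MO. The difference of MO minus WO was 1.00, higher in 5 of 5 MO mice (two-sided exact permutation test, p = 0.0079, the smallest that 5 against 5 mice can give, and 0.0397 after Benjamini-Hochberg adjustment over the 10 such tests made). For *Cyba* the values were -0.22, -0.21, -0.14, -0.33 and -0.37 in WO and 0.54, 0.60, 0.68, 0.40 and 0.77 in MO, a difference of 0.85 (exact p = 0.0079, adjusted p = 0.0397). The groups did not overlap for either gene, and both were raised by more than the mean of these 5 reference genes on this scale. Without MO5 the differences were 1.02 and 0.81, each with an adjusted exact p of 0.0794, so neither passed. Neither passed without any other single WO or MO mouse. As 4 against 5 mice can give no exact p below 0.0159, these lost calls do not show a smaller difference. With a mouse left out the difference was 0.89 to 1.11 for *Cybb* and 0.81 to 0.90 for *Cyba*.

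The cytosolic subunits did not pass against the 5 reference genes. MO minus WO was -0.16 for *Ncf1* (exact p = 0.294, adjusted p = 0.367), -0.12 for *Ncf4* (exact p = 0.349, adjusted p = 0.388) and -0.26 for *Rac2* (exact p = 0.0476, adjusted p = 0.0794), with overlapping groups in each. On the ratio of back-calculated FPKM with nothing added, the differences for *Ncf4* and *Rac2* turned to 0.73 and 0.29 and the one for *Ncf1* was -0.16, so the direction for *Ncf4* and *Rac2* depends on the constant added to FPKM. On that scale *Ncf4* passed, with no overlap of the groups (exact p = 0.0079, adjusted p = 0.0397), and so did *Cyba* with 0.80 (adjusted p = 0.0397), whereas *Cybb*, over the 3 WO mice with a positive value, gave 2.86 and did not pass (adjusted p = 0.0714). In MY vs. MO, where 3 against 5 mice cannot give an exact p below 0.0357, the differences were 0.86 for *Cybb* and 0.97 for *Cyba*, and -0.01, -0.22 and -0.45 for *Ncf1*, *Ncf4* and *Rac2*, and 0 of 5 passed after adjustment, the lowest adjusted p being 0.0714.

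The result depended on the genes of the reference. With all 10 pan-myeloid markers as the reference, an alternative chosen after seeing the data, the differences in WO vs. MO were 0.52 for *Cybb* and 0.36 for *Cyba*, and -0.64 for *Ncf1* (adjusted exact p = 0.0317), -0.60 for *Ncf4* and -0.75 for *Rac2*, each of the other 4 with an adjusted exact p of 0.0198. Of these markers *Cd68*, *C1qa* and *Tyrobp* had larger log2 fold changes in WO vs. MO than *Cybb* or *Cyba*, with 3.22, 2.82 and 2.69. In MY vs. MO the same alternative gave 0.39 for *Cybb* (adjusted p = 0.0794), 0.49 for *Cyba*, -0.70 for *Ncf4* and -0.92 for *Rac2* (0.0446 each), and -0.48 for *Ncf1* (0.107). The 5 reference genes are among the 10. The direction for the membrane subunits held with this reference, and the differences were smaller.

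With the homeostatic microglia genes as the reference in place of the myeloid ones, all 5 subunits exceeded it. The differences in WO vs. MO were 1.76 for *Cybb*, 1.60 for *Cyba*, 0.60 for *Ncf1*, 0.64 for *Ncf4* and 0.49 for *Rac2*, each with an adjusted exact p of 0.0159. Genes of this list moved differently. Of 7 reported, *Cx3cr1*, *Gpr34* and *Olfml3* were up-regulated in WO vs. MO (3 of 7), while *P2ry12*, a purine receptor of resting microglia, and *Sall1*, a microglial transcription factor, had log2 fold changes of 0.10 (FDR = 0.623) and -0.01 (FDR = 0.964).

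Of 4 further genes that act with the complex, 0 were called in WO vs. MO or MY vs. MO, with 3 and 1 at an unadjusted limma p below 0.05. *Rac1*, the widely expressed relative of *Rac2*, had a log2 fold change of 0.11 (FDR = 0.0313) in WO vs. MO and -0.0008 in MY vs. MO, at a median of 170.5 FPKM in MO. *Rac3*, its neuronal relative, gave -0.19 (FDR = 0.0683), *Rap1a*, a small GTPase found with the membrane subunits, -0.10 (FDR = 0.686), and *Cybc1*, listed under its older symbol BC017643 and needed for the stability of NOX2, 0.13 (FDR = 0.043).

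Other NADPH oxidases and their partners were measured for 6 of 9 listed genes, and 0 of 6 were called in WO vs. MO and in MY vs. MO. *Nox4*, an oxidase that makes hydrogen peroxide without the cytosolic subunits, came closest, with a log2 fold change of 0.45 (FDR = 0.00112) and 0.35 (FDR = 0.0153), below the fold threshold. With 0.1 added to FPKM it was called in both, with 1.11 and 0.79, at mean levels of 0.32 FPKM in WO and 0.82 in MO. *Nox1* gave 0.03 (FDR = 0.819) in WO vs. MO, and *Duox1* and *Duox2* had mean log2 levels of 0.10 and 0.04 in MO.

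Genes that regulate the oxidase or act beside it were up-regulated in 8 of 11 cases in both comparisons. Their median log2 fold change was 0.87 in WO vs. MO and 0.80 in MY vs. MO. The list holds activators, an inhibitor and a channel, so the count is not one of activators alone. The largest in WO vs. MO was *Hvcn1*, the proton channel that balances the charge moved by the oxidase, with 1.71 (SE 0.13, FDR = 2.16e-05). *Arhgdib*, an inhibitor that holds Rac in the cytosol, followed with 1.59. The exchange factors *Dock2* and *Vav1*, which load Rac with GTP, gave 1.26 and 1.18, the kinase *Syk* 0.95, and the lipid enzymes *Plcg2* and *Pik3cg* 0.87 and 0.85. *Prkcd*, a kinase of *Ncf1* protein, gave 0.79 in WO vs. MO and 0.59 in MY vs. MO, and fell below the fold threshold in the second without MO1 (0.51), MO3 (0.57) or MY3 (0.57). *Prex1* (-0.10, FDR = 0.229) and *Prkcb* (-0.02, FDR = 0.753) were not called in WO vs. MO. *Pla2g4a*, a phospholipase, was down-regulated in MY vs. MO with -0.70 (FDR = 0.0348). The call was lost with 0.1 added to FPKM and without 7 of the 8 mice in turn, MO4 being the exception. The log2 fold change was -0.80 (FDR = 0.0505) with 0.1 added. It was -0.55 without MO1, below the fold threshold, and -0.66 to -0.73 in the other lost cases, where the FDR exceeded 0.05.

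Of 4 genes of NADPH supply 0 were called in either comparison. *G6pdx* and *Pgd*, enzymes of the pentose phosphate pathway, had log2 fold changes of 0.26 (FDR = 0.000512) and 0.27 (FDR = 0.00108) in WO vs. MO, larger than the spread between mice but below the fold threshold. Among 5 genes that remove superoxide and peroxide, 1 was called in each comparison, *Gpx1*, a glutathione peroxidase, with 0.74 (SE 0.07, FDR = 3.2e-05) in WO vs. MO and 0.77 in MY vs. MO. *Sod2*, the mitochondrial superoxide dismutase, gave -0.31 (FDR = 0.000487) in WO vs. MO, and *Sod1* 0.12 (FDR = 0.279). Of 30 pathway genes reported beside the 5 subunits, 9 were up-regulated and 0 down-regulated in WO vs. MO, and 9 and 1 in MY vs. MO. In WY vs. WO and WY vs. MY 0 of 30 were called, with 7 and 3 at an unadjusted limma p below 0.05.

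**Figure D2:**
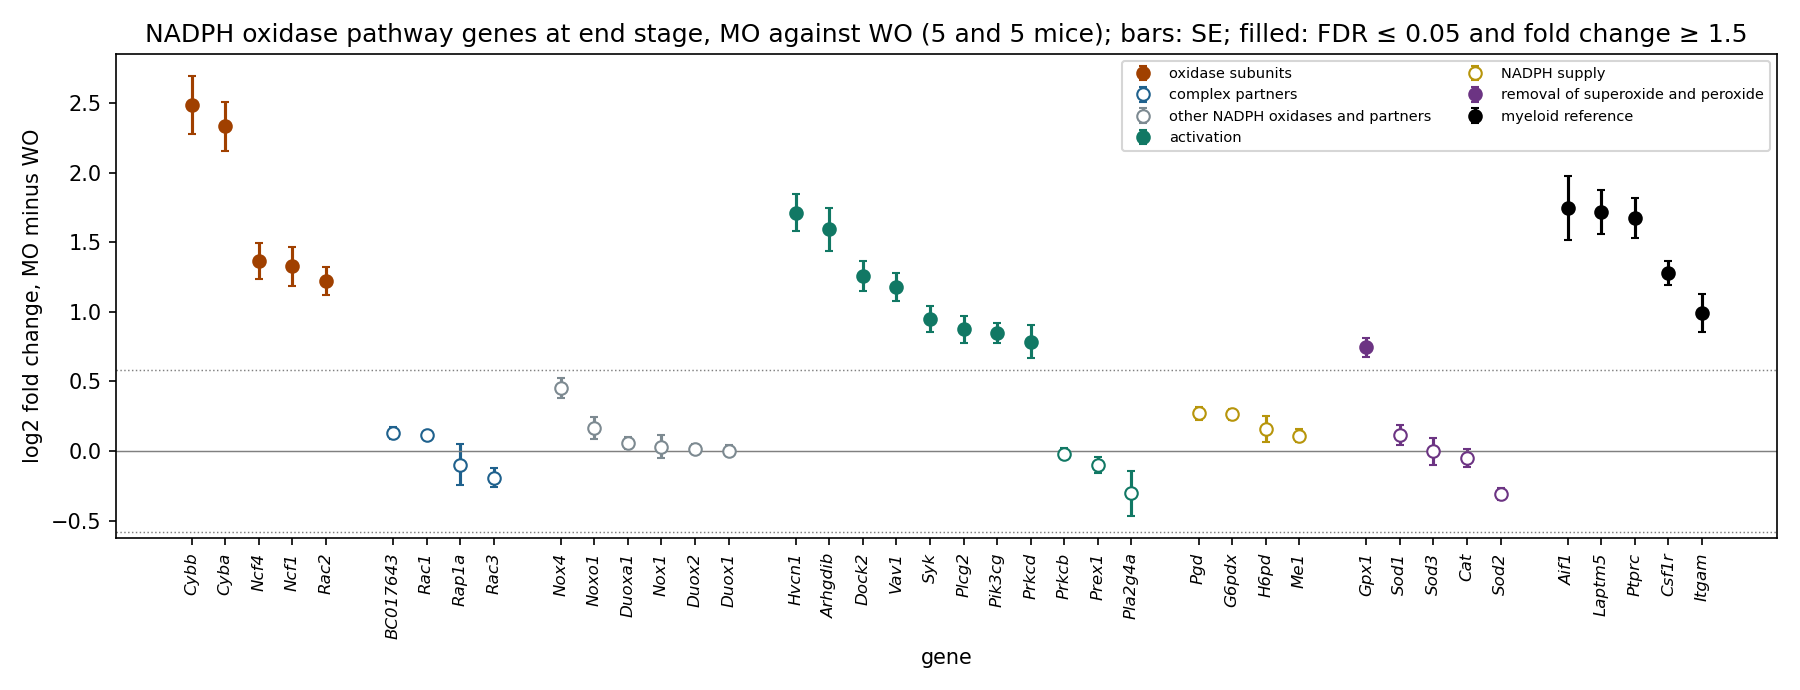
Log2 fold change of MO minus WO (vertical axis, 5 mice in each group) for the 5 oxidase subunits, the other pathway genes and the 5 myeloid reference genes (horizontal axis). Points are limma estimates, bars their standard errors, filled points the called genes, and dotted lines mark a fold change of 1.5. *Cybb* and *Cyba* lie above all others, and the remaining subunits lie between *Itgam* and *Ptprc* of the reference.

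Markers of cells that could carry these transcripts were read beside them. All 10 pan-myeloid markers were up-regulated in both comparisons, and their summed level was 105.7 to 184.0 FPKM in WO and 598.4 to 1193 FPKM in MO, with *C1qa* the most abundant by the group mean in WY, MY and MO and *Tyrobp* in WO, with 43.4 against 40.7 FPKM for *C1qa*. Their order differed between mice, *C1qa* being first in 3 of 3 WY, 2 of 3 MY, 3 of 5 WO and 2 of 5 MO mice and *Tyrobp* in the others. Neutrophils use the same oxidase, and of 10 measured neutrophil markers 1 was up-regulated, the receptor *Csf3r* with log2 fold changes of 1.496 and 1.498. The granule genes *Mpo* and *Ltf* were near 0, with mean log2 levels of 0.07 and 0.06 in MO, and *S100a8* and *S100a9* had log2 fold changes of -0.93 (FDR = 0.242) and -0.89 (FDR = 0.266) in WO vs. MO, or -0.47 and -0.46 without WO2. The summed level of the neutrophil markers was 7.12 to 15.8 FPKM in MO and 5.68 to 40.2 FPKM in WO, with *Csf3r* the most abundant in every MO and WY mouse. In MO the mean of *Csf3r* was 7.09 FPKM, against 2.07 for *S100a8*, so the MO sum rests on *Csf3r* more than on any other marker. Whether *Csf3r* came from neutrophils was not tested. By the group mean *S100a8* exceeded *Csf3r* in WO, with 5.70 against 1.86 FPKM (2.82 without WO2), and in MY, with 1.90 against 1.84, where it led in 1 of 3 mice. The highest sum was that of WO2, where *S100a8* and *S100a9* were at 4.19 and 3.96 on the log2 scale.

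Monocyte markers were up-regulated in 1 of 6 cases, the matrix gene *Fn1*, which other cells also express. Its log2 fold change in WO vs. MO was 0.76 (FDR = 0.0278), and the call was lost within batch 1 (0.39, FDR = 0.138) and without MO2, MO3, MO5, WO4 or WO5 (0.74, 0.71, 0.70, 0.61 and 0.63), while in MY vs. MO it was 1.15 (FDR = 0.000744). By contrast, *Ccr2* and *Ly6c2* had mean log2 levels of 0.10 and 0.24 in MO. Border macrophage markers were called in 0 of 6 cases in both comparisons, with 3 of 6 at an unadjusted limma p below 0.05 in each, and lymphocyte markers in 0 of 6, with 3 and 0. The receptors *Mrc1* and *Lyve1* of border macrophages had log2 fold changes of 0.22 (FDR = 0.00343) and 0.24 (FDR = 0.0109) in WO vs. MO without overlap of the groups, below the fold threshold, at mean levels of 0.21 and 0.13 FPKM in WO and 0.41 and 0.34 in MO. With 0.1 added to FPKM both were called, with 0.74 and 0.88 in WO vs. MO and 0.61 and 0.87 in MY vs. MO, as was the lymphocyte gene *Cd8a* in WO vs. MO (0.66, at a mean of 0.074 FPKM in MO and with WO values below 0 set to 0). The border macrophage sum was 2.90 to 3.82 FPKM in MO and 1.46 to 2.76 FPKM in WO, the monocyte sum 7.79 to 11.5 and 3.43 to 8.27 FPKM, and the lymphocyte sum 0.49 to 0.58 and 0.17 to 0.57 FPKM. The part of microglial number in the rise of the subunits was not tested.

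The genes most like each subunit across the 16 mice were described by Pearson's r, with no test, since the separation of MO from the other groups enters every value. For *Cybb* they were *Fyb* (r = 0.997), *Lilrb4a* (0.997) and *Gpnmb* (0.996), and for *Cyba* *Trem2* (0.997), *Cd68* (0.995) and *C1qc* (0.994). For *Ncf1* they were *Rhoj* (0.992), *Nupr1* (0.991) and *Kcnk6* (0.99), for *Ncf4* *Csf1* (0.99), *Parvg* (0.987) and 4632428N05Rik (0.985), and for *Rac2* *Ctsb* (0.988), *Parvg* (0.988) and *Pik3ap1* (0.987). Over the 11 mice outside MO the same r values ran from 0.695 for *Rac2* with *Parvg* to 0.98 for *Cybb* with *Gpnmb*. For this pair WO4 and WO5 lay apart from the rest in both genes, and over the 9 mice of batch 1 outside MO its r was 0.32. The values over these 9 ran from -0.058 for *Cybb* with *Fyb* to 0.913 for *Ncf1* with *Kcnk6*. Between the subunits r was 0.934 to 0.983 over 16 mice, and over the 11 mice outside MO it was 0.071 for *Ncf1* with *Rac2* and 0.82 for *Cyba* with *Ncf1*, the lowest and the highest pair. Over the 9 mice of batch 1 the lowest was -0.58 for *Cybb* with *Ncf4* and the highest 0.72 for *Cyba* with *Ncf1*.

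Promoters, taken as 250 bases before to 50 after the gene start in RefSeq (GRCm38.p6), were at hand for *Cybb*, *Cyba* and *Ncf1*. For *Cybb* the RefSeq start lies inside the GENCODE gene and not at its outer end. The core motif of PU.1, the myeloid factor encoded by *Spi1*, was searched as GAGGAAGT on both strands and was found in 0 of the 3, against 3.2% of 32851 promoters. The shorter GAGGAA, which the first contains, was found in 1 of 3, *Cybb*, against 28.3% of all promoters. It lay 10 to 15 bases after the start on the opposite strand, within chrX:9469298-9469327 (minus strand), printed 5′ to 3′ with the match in capitals to show where it sits.
Cybb: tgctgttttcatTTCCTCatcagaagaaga
The match is a description of the sequence. *Spi1* itself had a log2 fold change of 1.68 (FDR = 2.16e-05) in WO vs. MO and 1.44 in MY vs. MO.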

How the data were processed

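Spinal cord RNA of 16 mice was sequenced by the authors (stranded mRNA libraries). Per their methods and processing notes, Trimmomatic filtered the reads, TopHat placed them on mm10 and Cufflinks gave FPKM. Genes at 0 in at least 8 mice were removed. The deposited log2 values are log2(1 + FPKM) after ComBat correction for 2 batches, of which 915 are below 0. Tool versions and annotation are not given in the sources used here. No counts were used, and depth per gene is unknown.

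Each pair of groups was fitted separately with limma 3.58.1 in R 4.3.3 (lmFit, eBayes, two-sided) on 18167 genes, with Benjamini-Hochberg FDR, and the interaction on all mice. The procedure was tested on simulated data. Exact permutation tests used SciPy 1.17.1 in Python 3.11.15. FPKM was back-calculated as 2 to the power of the value, minus 1. Positions came from GENCODE M21 on GRCm38.

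The named genes were the 5 subunits, the pathway and marker lists (some of whose genes are not reported here), and for each subunit the 3 genes with the highest r among genes of mean at least 1. The members and lists were chosen with earlier results of these data known. Alternatives were batch 1 only, batch as a term, a mean of at least 1, all groups in 1 fit, quantile normalization, 0.1 added to FPKM (with values below 0 FPKM first set to 0), an intensity trend, leaving out each mouse, and a block for the replicate number. All 10 pan-myeloid markers as the reference were added after seeing the data.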

Additional observations from a re-analysis of the deposited data

Results flagged for a closer look

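The difference of old minus young between mutant and wild-type mice passed the limma test for all 5 subunits and 8 further pathway genes. For the subunits it was 2.44 for *Cybb*, 2.44 for *Cyba*, 1.38 for *Ncf1*, 1.43 for *Ncf4* and 1.10 for *Rac2*. Among genes that regulate the oxidase or act beside it, it was 1.78 for *Hvcn1*, 1.51 for *Arhgdib*, 1.26 for *Vav1*, 1.20 for *Dock2*, 0.93 for *Plcg2*, 0.87 for *Syk* and 0.84 for *Pik3cg*. *Gpx1* gave 0.85 (FDR = 0.000338). *Prkcd*, up-regulated in both comparisons with MO, had 0.52 (FDR = 0.0453), below the fold threshold.

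A single mouse lay far from the rest of its group in 1 of 80 groups examined, where about 1 in 20 is flagged by chance. *Duox1* was at 0.045 in WO3, against 0.11 to 0.13 in the other WO mice, a level near 0 in every mouse of the group. By this rule no single mouse was flagged for any of the 5 subunits or their values relative to the myeloid reference in WO or MO. The rule cannot flag 2 mice that lie apart together. For *Cybb*, WO4 and WO5 were at -0.17 and -0.18, against 0.30 to 0.32 in the other WO mice. The markers described above, *Xist* in MO5 and *Mbp* in WO4, were not among the groups examined.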

How the results depend on the processing

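The 5 subunits were called in WO vs. MO, MY vs. MO and the interaction under every alternative, except that *Cybb* was not tested among genes with a mean of at least 1, which left 4. In WY vs. WO and WY vs. MY 0 of 5 were called throughout. With 0.1 added to FPKM the genes called were 1529 in place of 836 in WO vs. MO, 1483 in place of 890 in MY vs. MO and 1548 in place of 1020 in the interaction. In WY vs. WO the 46 called genes became 73 within batch 1 and 80 with batch as a term, and 7 to 64 with a mouse left out, namely 7 without WY3, 23 without WY1, 26 without WO2, 27 without WO3 and 30 without WY2. In WY vs. MY the 1 called gene became 2 with the mean filter, 4 with all groups in 1 fit, 2 with the intensity trend and 1 to 5 with a mouse left out. The cause was not tested.

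Replicate numbers were not treated as pairs. In no comparison were all same-numbered mice correlated above 0.1 in their deviations from the group means. The range of r for same-numbered mice was -0.21 to 0.091 in WO vs. MO, 0.085 to 0.177 in MY vs. MO, -0.20 to -0.019 in WY vs. MY and -0.13 to 0.377 in WY vs. WO. In MY vs. MO each same-numbered pair had the highest r of its MY mouse. With so few mice in a group, this check cannot exclude pairing. With the number as a replicate block, 840 genes were called in WO vs. MO, 1108 in MY vs. MO, 63 in WY vs. WO, 1 in WY vs. MY and 1008 in the interaction, and the calls of the subunits did not change.

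In WY vs. WO the log2 fold change of *Cyba* turned to 0.19 and that of *Cybb* to 0.067 within batch 1, with batch as a term and with the block. With a mouse left out, *Cyba* ran from -0.085 to 0.0695 and *Ncf1* from -0.0051 to 0.15. In WY vs. MY *Ncf1* ran from -0.12 to 0.031 and *Ncf4* from -0.17 to 0.0002. None of these was called.

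Of 10 tests against the myeloid reference 2 passed. With all 10 pan-myeloid markers as the reference, chosen after seeing the data, 8 passed, *Cybb* and *Cyba* above it and the cytosolic subunits below. With the homeostatic list 10 passed, within batch 1 0 did, where 3 against 3 mice cannot give a p below 0.1, and with a mouse left out 0 to 2 did, 0 where it was an MO or WO mouse, where 4 against 5 can give no p below 0.0159. Directions turned with the homeostatic list to 0.60, 0.64 and 0.49 for *Ncf1*, *Ncf4* and *Rac2* in WO vs. MO and 0.78, 0.57 and 0.34 in MY vs. MO. Without an added constant they turned for *Ncf4* (0.73 and 0.42), for *Rac2* in WO vs. MO (0.29) and for *Ncf1* in MY vs. MO (0.055), which was 0.049 within batch 1 and -0.13 to 0.065 with a mouse left out. Among 85 called values of other named genes, 6 lost their call in some alternative, those of *Aldh1l1*, *Fn1*, *Pla2g4a*, *Prkcd*, *Slc6a5* and *Tmem119*.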

Other observations

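Markers of other cell types differed as well. Of 3 astrocyte markers 3 were up-regulated in WO vs. MO, with 1.60 for *Gfap*, an intermediate filament of astrocytes (SE 0.10, FDR = 1.46e-05), and 2 of 3 in MY vs. MO. Of 6 genes of spinal cord neurons 2 were down-regulated in WO vs. MO, the acetylcholine-synthesizing enzyme *Chat* by a log2 fold change of -0.67 (FDR = 3.13e-05) and the glycine transporter *Slc6a5* by -0.78 (FDR = 0.00225). Of 2 oligodendrocyte markers reported, 0 were called in WO vs. MO, where *Mog* had -0.30 (FDR = 0.239). *Mog* was down-regulated in MY vs. MO with -0.93 (FDR = 0.0118) and in WY vs. WO with -0.77 (FDR = 0.0178), and its interaction was -0.16 (FDR = 0.718). Red blood cell markers were called in 0 of 4 cases in both comparisons. *Hba-a2* and *Hbb-bs* were at 0.0114 to 0.0115 and 0.0033 to 0.0034 in every mouse and so could not be called. In WO vs. MO *Hba-a1* had -0.89 (FDR = 0.142), with MO1 the lowest mouse, and *Alas2* had -0.47 (FDR = 0.0569). The part of these changes in the levels of the subunits was not tested.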
